A study of Mus musculus with 17 samples.

Results

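Genes of the extracellular matrix were examined in whole kidneys of 17 male mice aged 16 weeks. They comprise every protein-coding gene named as a collagen chain or laminin chain, with 14 further basement membrane and fibril genes from nidogen 1 (Nid1) to transforming growth factor beta induced (Tgfbi). Of 69 such genes in the deposited table, 47 had at least 10 counts in 6 or more of the 17 libraries and form the set described here, out of 11412 protein-coding genes past the same minimum. The rule uses names and abundance, and was set with earlier results of these data known.

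All mice came from a BKS stock with the Leprdb mutation, 1 library per animal. The 8 db/m mice are lean controls and carry a single mutant allele of Lepr, which encodes the leptin receptor. The 9 db/db mice carry the Lepr mutation on both chromosomes, cannot respond to leptin through its long receptor, and grow obese and diabetic. The titles, library names and stated group sizes were used to assign animals. The genotype field swaps db/m and db/db in all 17 of them, and under it each direction below would turn round. Reads come from the 3′ ends of transcripts, in libraries made from polyadenylated RNA, so that counts do not grow with transcript length. The protocol text speaks of cultured cells, whereas the tissue field and titles give kidney. Proximal tubule markers summed to 6496 to 8579 CPM (counts scaled to a common library size) in db/m and 6237 to 8175 CPM in db/db, and lymphocyte markers to at most 16.9 CPM.

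Basement membranes are thin sheets under epithelium and around vessels, built on networks of collagen IV and laminin that nidogens and the proteoglycans perlecan and agrin hold together. Interstitial matrix instead rests on fibrils of collagens I, III and V, with partners that coat, space or crosslink the fibrils. In the kidney the glomerular basement membrane is part of the filter, and in diabetic nephropathy both its thickening and interstitial fibrosis are well known.

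Libraries held 3256427 to 7627747 gene counts, and the 47 matrix genes took 0.152% to 0.251% of them. No batch is named in the labels, and library numbers 1 to 8 are all db/m, so a batch that followed the numbering cannot be told apart from the group. Library db/m 8 had the highest summed markers among db/m of fibroblasts (181 CPM), smooth muscle (267 CPM), adipocytes (1411 CPM) and urothelium (102 CPM). Among db/db, library db/db 9 was the highest in the same lists, at 179, 276, 580 and 77.2 CPM. Library db/db 8 lay farthest out on the first principal component of all tested genes (79.2). Values without these libraries are given beside some of the results that they move.

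The db/db and db/m kidneys were compared to ask which matrix genes differ with the diabetic genotype, and whether basement membrane and fibrillar genes differ alike. Of the 46 matrix genes that passed the filter for testing, 9 were higher in db/db and 0 were lower (quasi-likelihood test of edgeR, adjusted p under 0.05 after Benjamini-Hochberg adjustment over 12131 genes). That is 19.6% of the 46 called higher, where 3.91% of all tested genes were called higher and 3.49% lower. Without adjustment, 12 were higher and 3 lower at p under 0.05, 32.6% of the 46, beside 21.1% of all tested genes in either direction. DESeq2 likewise called 9 higher and 0 lower. The median log2 fold change (db/db minus db/m throughout) was 0.16 over the 46 and 0.00 over all tested genes. The 9 were the basement membrane genes Col4a1, Col4a2 and Col18a1, the fibrillar collagen Col5a1, the short-chain collagen Col8a1, the fibril-associated collagen Col12a1, and Sparc, Loxl1 and Fbn1. Of these, 7 were called in all 17 fits that left out 1 library, and the calls of Col4a1 and Fbn1 were not. Col12a1 met the abundance minimum through db/db alone, and the other 8 had at least 10 counts in all 17 libraries. Col7a1, one of the 12, and Col13a1, one of the 46, also met the minimum through db/db alone, and both had positive values. Col19a1, a collagen much sparser in db/db, missed the minimum. The tallies of higher and lower genes and the median of 0.16 therefore depend in part on this minimum. How far they do was not tested.

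**Figure D1:**
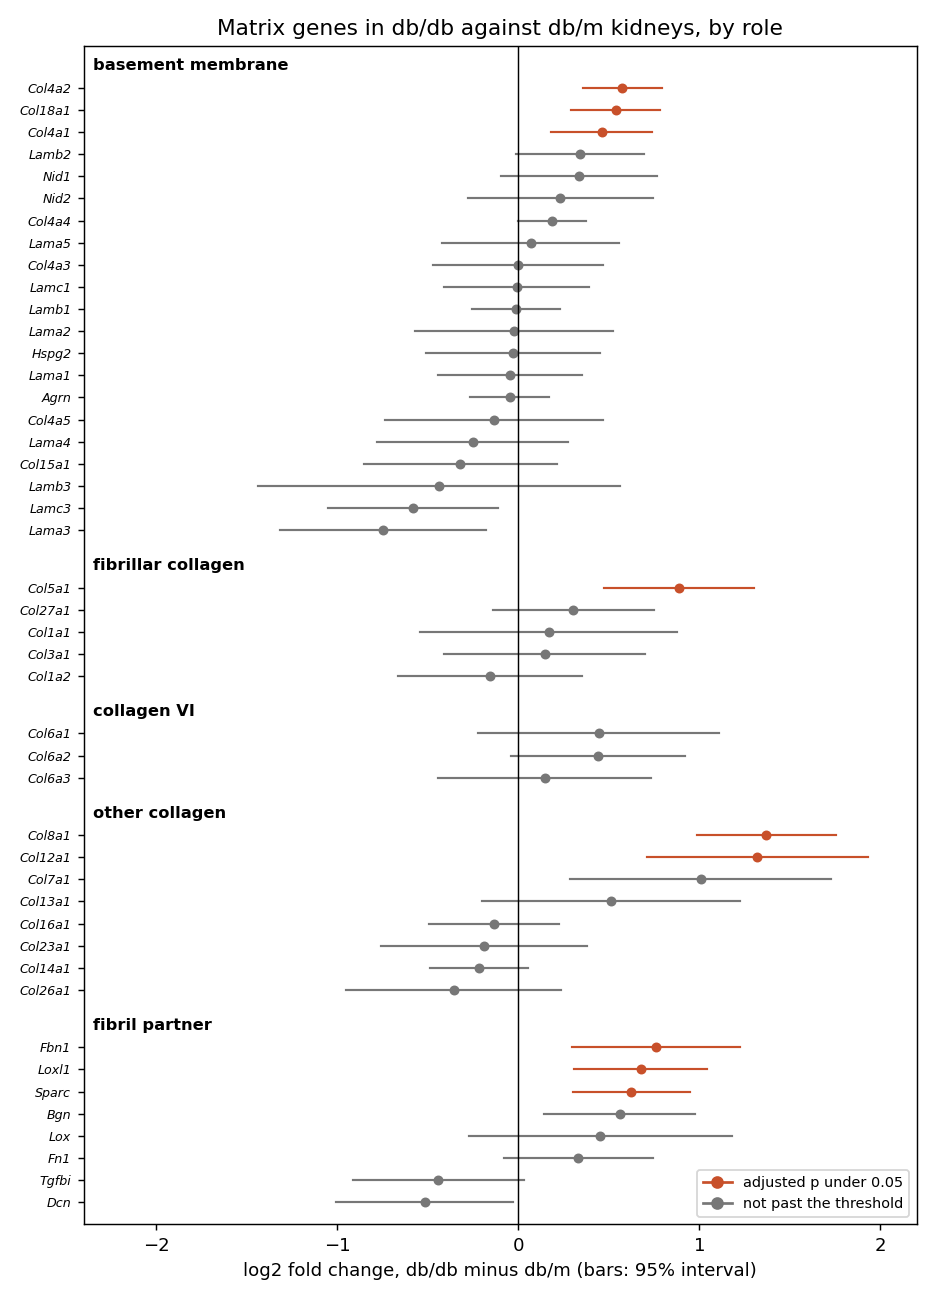
Log2 fold change (horizontal axis, db/db minus db/m) of the tested matrix genes, 1 laminin chain left out, grouped by role, with 95% intervals as bars; orange marks the 9 genes past an adjusted p of 0.05. Basement membrane genes lie on both sides of 0, with a median of -0.01, and all 9 orange genes lie above 0.

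Of the 5 tested chains of collagen IV, 2 rose and 0 fell, 40% called higher beside 3.91% of all tested genes. Differences between chains were not tested. Collagen IV trimers come in 3 kinds, of which the α1α1α2 kind, made from Col4a1 and Col4a2, is found in basement membranes throughout the body. Col4a2 (chromosome 8) ran from 63.4 CPM over a median of 76.9 to 98.3 in the 8 db/m mice and from 99.0 over 114 to 156 in the 9 db/db mice. Every db/db library was above every db/m library, which held for 0.734% of all tested genes in that direction. Its log2 fold change was 0.58 (SE 0.10, 95% interval 0.36 to 0.79; edgeR adjusted p = 0.000972), and it stayed called in all 25 alternative fits. Col4a1, its partner on the same chromosome, had a lowest, median and highest value of 92.1, 106 and 128 CPM in db/m and 102, 138 and 218 CPM in db/db. The groups overlapped, with 6 of 9 db/db libraries above the highest db/m library. Its log2 fold change was 0.46 (SE 0.13, 95% interval 0.18 to 0.74; edgeR adjusted p = 0.0385). The Col4a1 call held without db/m 3 or db/db 1, 2, 3 or 6. It ended in each of the other 12 fits that left out 1 library, at an edgeR adjusted p of up to 0.0821. Without db/db 8, its highest library, Col4a1 was at 0.37 (edgeR adjusted p = 0.0562).

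Col4a1 and Col4a2 are transcribed away from each other from starts that overlap, and the shared letters are shown because both genes rose. In the RefSeq-based table for GRCm38.p6, the first bases of the 2 transcripts enclose 22 bases at chr8:11312805-11312826, given on the plus strand, which is the strand of Col4a2. Capitals mark a GC box (GGGCGG), a motif known to bind Sp1 and its relatives.
Col4a1 and Col4a2 shared start: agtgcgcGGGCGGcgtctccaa
Reads at the 3′ ends of these genes come from far outside this stretch. Across the db/m mice the 2 genes went together on the log2 CPM scale (Pearson r = 0.889, exact permutation p = 0.00258, adjusted p = 0.0258 over 10 relations; Spearman rho = 0.833, p = 0.0154; n = 8). Without the 2 libraries farthest from the Col4a1 median, db/m 3 and db/m 8, r was 0.674 (exact permutation p = 0.143, n = 6), which no longer passed the threshold. Across the 9 db/db mice r was 0.523 (exact permutation p = 0.153, adjusted p = 0.288) and rho was 0.817 (exact permutation p = 0.0108). With db/db 7 and db/db 8 left out, r was 0.843 (exact permutation p = 0.00258).

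The glomerular chains did not pass the test. The α3α4α5 trimer is laid down by podocytes in the filter, and defects in its genes cause Alport syndrome. Col4a3 ran from 42.1 over 58.7 to 84.7 CPM in db/m and from 28.7 over 57.2 to 135 CPM in db/db, with the log2 fold change at 0.00 (SE 0.23, 95% interval -0.47 to 0.47; edgeR adjusted p = 0.998). The db/db range enclosed that of db/m, and its top value, in db/db 8, stood apart from the next at 67.6 CPM. Without db/db 8 the log2 fold change was -0.24 (edgeR adjusted p = 0.450). Col4a4, which lies head to head with Col4a3 on chromosome 1, had values of 199, 227 and 268 CPM in db/m and 221, 267 and 297 CPM in db/db. Its log2 fold change was 0.19 (SE 0.09, 95% interval -0.000536 to 0.37; edgeR adjusted p = 0.239), with 4 of 9 db/db libraries above the highest db/m. Col4a5 (chromosome X) was at 2.55, 5.55 and 15.5 CPM in db/m and 4.79, 5.80 and 9.10 CPM in db/db, with the log2 fold change at -0.14 (SE 0.29; edgeR adjusted p = 0.840). Without db/m 8 that value was 0.20. Col4a6 was too sparse for the set, at 62 counts in db/m, 32 of them in db/m 8, and 85 in db/db. No relation between Col4a3 and Col4a4 passed the threshold. In db/m r was 0.563 (exact permutation p = 0.145, adjusted p = 0.288), rho was 0.405 (exact permutation p = 0.327), and r was 0.126 without db/m 4 and db/m 6. In db/db r was -0.00813 (exact permutation p = 0.985, adjusted p = 0.985), rho was 0 (exact permutation p = 1), and r was -0.367 without db/db 4 and db/db 8.

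Of 8 podocyte markers, 2 were called higher in the same kidneys and 0 lower, 25% called higher beside 3.91% of all tested genes. One was Nphs1, which encodes the slit diaphragm protein nephrin, at 4.08 ± 1.37 CPM in db/m (SD, n = 8) and 7.27 ± 2.78 in db/db (n = 9), which is 0.84 on the log2 scale (SE 0.25; edgeR adjusted p = 0.0437). Its call held in 5 of the 17 fits that left out 1 library, with an edgeR adjusted p of up to 0.0955 in the others. The summed podocyte markers ran from 193 to 272 CPM in db/m and from 231 to 330 in db/db. In whole tissue, fewer cells of a type and less RNA per cell cannot be told apart, and the part of podocyte number in the collagen IV values was not tested. None of 9 endothelial markers was called by edgeR, 0 higher and 1 lower at an unadjusted p under 0.05, with sums of 524 to 666 CPM in db/m and 503 to 654 in db/db.

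**Figure D2:**
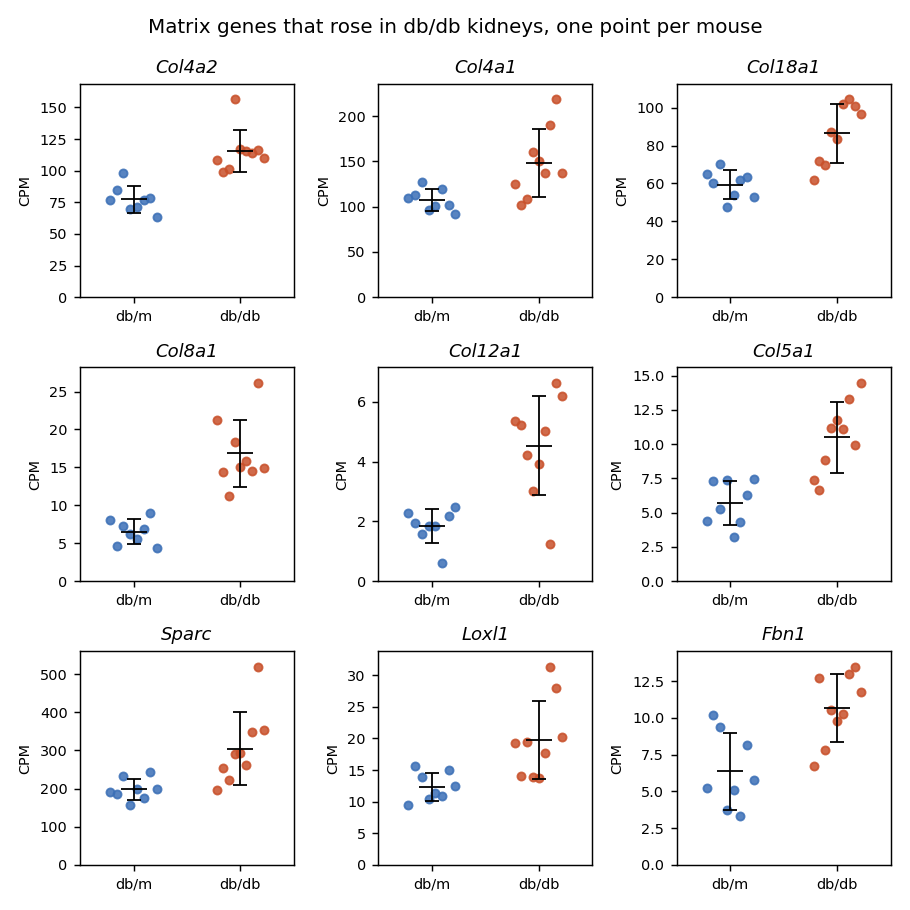
CPM (vertical axis, from 0) of the 9 matrix genes called higher in db/db, 1 point per mouse (8 db/m in blue, 9 db/db in orange), with mean and SD in black. The groups do not overlap for Col4a2 and Col8a1 and overlap for the other 7.

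The third basement membrane gene that rose was Col18a1, whose protein is a heparan sulfate proteoglycan and is cleaved to endostatin. Its lowest, median and highest values were 47.4, 61.1 and 70.0 CPM in db/m and 61.7, 86.9 and 104 CPM in db/db, with 7 of 9 db/db libraries above every db/m library. Col18a1 thus differed by 0.54 on the log2 scale (SE 0.12, 95% interval 0.29 to 0.79; edgeR adjusted p = 0.00580). Col15a1, its closest relative among collagens, was at a log2 fold change of -0.32 (SE 0.26; edgeR adjusted p = 0.517), with 8.64 CPM as the db/m median and 8.05 as that of db/db.

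None of the 11 laminin chains was called by edgeR, and the median log2 fold change was -0.02. At an unadjusted p under 0.05, 1 was higher and 2 were lower, 27.3% beside the 21.1% of all tested genes. Laminins are trimers of an α, a β and a γ chain that start basement membrane assembly. Lama3, an α chain that joins Lamb3 in a laminin of epithelia, was at -0.75 (SE 0.27, 95% interval -1.32 to -0.18; edgeR adjusted p = 0.110). It ran from 5.44 over 9.39 to 19.0 CPM in db/m and from 2.79 over 5.49 to 13.0 in db/db. Without db/db 1, its highest db/db library, Lama3 was called lower at -0.95 (edgeR adjusted p = 0.0172). Lamb3 was at -0.44 (SE 0.48; edgeR adjusted p = 0.655), where 21.5 CPM in db/m 8 stood far above the other db/m libraries, and at 0.31 without that library.

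Lamc3 was at -0.58 (SE 0.23; edgeR adjusted p = 0.132), from 2.43, 5.62 and 6.27 CPM in db/m to 2.01, 3.30 and 4.35 CPM in db/db, and 0 of 9 db/db libraries exceeded the db/m median. A group of 8 laminin chains, Lamb3 included, lay between -0.44 and 0.34. Lamb2, the β2 chain of the glomerular filter, was the highest of these at 0.34 (SE 0.17; edgeR adjusted p = 0.255). Lamb1 was at -0.01 (SE 0.12, 95% interval -0.25 to 0.23; edgeR adjusted p = 0.970) with medians of 170 and 168 CPM. Lamb1 and Lamc1, which share the trimers laminin 111 and 511, gave no relation past the threshold. In db/m r was -0.497 (exact permutation p = 0.213, adjusted p = 0.304), rho was -0.0952 (exact permutation p = 0.840), and r was -0.0719 without db/m 1 and db/m 8. In db/db r was -0.0155 (exact permutation p = 0.969, adjusted p = 0.985), rho was 0.0667 (exact permutation p = 0.880), and r was 0.269 without db/db 4 and db/db 8.

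The linkers of the 2 networks and Col15a1 gave 5 values between -0.32 and 0.34, none called. Agrn was at -0.05 (SE 0.10; edgeR adjusted p = 0.843), with 85.1 CPM as the db/m median and 87.2 as that of db/db, and the perlecan gene Hspg2 was at -0.03 (SE 0.23; edgeR adjusted p = 0.957). Nid1 was at 0.34 (SE 0.21; edgeR adjusted p = 0.374), and at 0.12 without db/db 8, whose 62.1 CPM was far above the next value of 35.7 CPM. Nid2 was at 0.23 (SE 0.25; edgeR adjusted p = 0.641). In all, 3 of 22 basement membrane genes rose and 0 fell, 13.6% called higher beside 3.91% of all tested genes, and their median was -0.01.

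**Figure D3:**
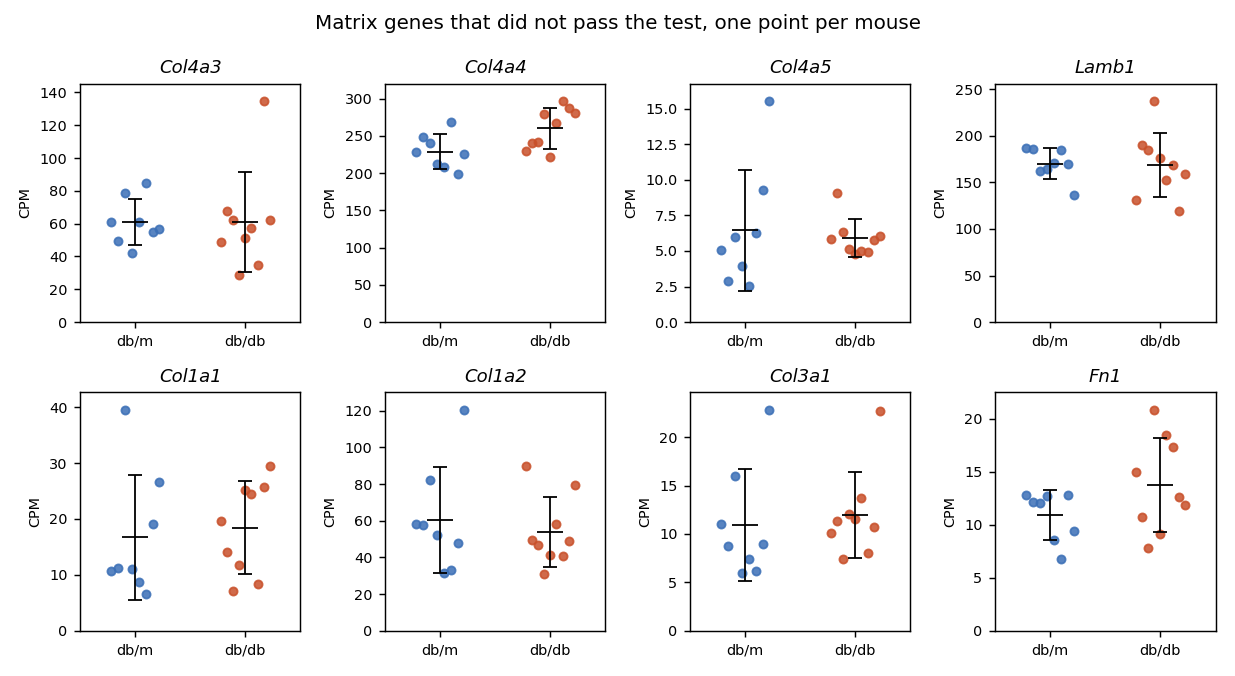
CPM (vertical axis, from 0) of 8 matrix genes that did not pass the test, 1 point per mouse (8 db/m in blue, 9 db/db in orange), with mean and SD in black. Col1a2 and Col3a1 peak in db/m 8 among db/m, and Col4a3 peaks in db/db 8.

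Among fibrillar collagens, 1 of 5 tested rose and 0 fell, 20% called higher beside 3.91% of all tested genes. This 20% is 1 gene, and the median log2 fold change of the 5 was 0.17. The gene that rose was Col5a1, whose collagen V nucleates collagen I fibrils and limits their width. It ran from 3.24 over 5.74 to 7.47 CPM in db/m and from 6.62 over 11.1 to 14.4 in db/db, and 7 of 9 db/db libraries lay above every db/m library. Its log2 fold change was 0.89 (SE 0.20, 95% interval 0.47 to 1.30; edgeR adjusted p = 0.00729). Col5a2, which supplies the other chain of the common collagen V trimer, was sparse (74 counts in db/m, 78 in db/db) and did not pass the filter. With no filter its log2 fold change was -0.06 (edgeR adjusted p = 0.967).

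The chains of the main interstitial fibrils did not pass the test. Col1a1, a chain of collagen I, was at 6.59, 11.1 and 39.5 CPM in db/m and 7.18, 19.7 and 29.5 in db/db (log2 fold change 0.17, SE 0.34, 95% interval -0.54 to 0.88; edgeR adjusted p = 0.830). Col1a2, the other chain, was at 31.5, 54.9 and 120 CPM in db/m and 31.1, 48.9 and 89.6 in db/db (-0.16, SE 0.24, 95% interval -0.67 to 0.35; edgeR adjusted p = 0.767). Col3a1, the chain of collagen III, was at 6.01, 8.87 and 22.8 CPM in db/m and 7.39, 11.3 and 22.7 in db/db (0.15, SE 0.27, 95% interval -0.41 to 0.70; edgeR adjusted p = 0.808). In all 3 genes no db/db library exceeded the highest db/m library, and the spread among mice of 1 group was several-fold. Above the db/m median lay 7, 3 and 7 of the 9 db/db libraries, in the same order. Without db/m 8, the 3 values were 0.30, 0.06 and 0.40, still not called, and without db/db 9 they were 0.05, -0.24 and -0.04. The highest db/m library for Col1a1 was instead db/m 3. Over the 17 fits that left out 1 library, Col1a1 ran from 0.04 to 0.47 and was not called. Col27a1, whose collagen is best known from cartilage, was at 0.30 (SE 0.21; edgeR adjusted p = 0.449), and at 0.06 without db/db 1, which held 429 CPM against 209 in the next db/db library. Between Col1a1 and Col1a2, r was 0.805 across db/m (exact permutation p = 0.0170, adjusted p = 0.0849), rho was 0.738 (exact permutation p = 0.0458), and r was 0.563 (exact permutation p = 0.283) without db/m 3 and db/m 8. Across db/db, r was 0.500 (exact permutation p = 0.173, adjusted p = 0.288), rho was 0.500 (exact permutation p = 0.178), and r was 0.521 without db/db 3 and db/db 7.

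The basement membrane pair and the main fibrillar chains were also summed in each mouse. Summed Col4a1 and Col4a2 ran from 156 over 184 to 226 CPM in db/m and from 201 over 253 to 335 CPM in db/db. Likewise, summed Col1a1, Col1a2 and Col3a1 ran from 45.8 over 76.8 to 170 CPM in db/m and from 54.9 over 78.1 to 132 CPM in db/db. The ratio of the 2 sums was 0.916, 2.38 and 4.28 in db/m (lowest, median, highest) and 1.88, 3.41 and 5.77 in db/db, so the groups overlapped widely. The lowest ratio in db/m was that of db/m 8 and the lowest in db/db that of db/db 9, the libraries with the highest fibroblast, smooth muscle, adipocyte and urothelial marker sums in their groups. These sums are given as a description. Whether the basement membrane and fibrillar groups differ in their response was not tested.

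**Figure D4:**
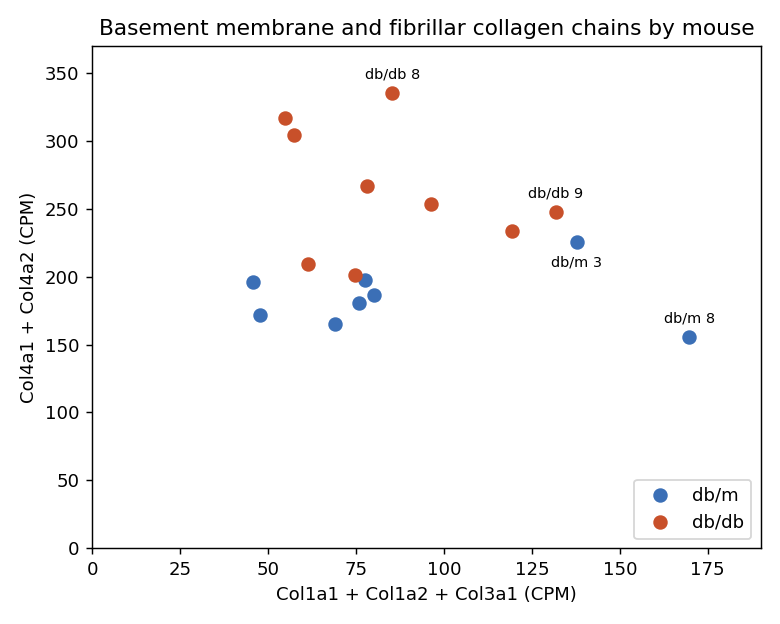
Summed CPM of Col4a1 and Col4a2 (vertical axis) against that of Col1a1, Col1a2 and Col3a1 (horizontal axis), 1 point per mouse (8 db/m in blue, 9 db/db in orange). Vertical medians are 184 (db/m) and 253 (db/db), with horizontal medians of 76.8 and 78.1, and db/m 8 lies farthest right.

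The largest log2 fold change of the set was that of Col8a1 on chromosome 16. Collagen VIII is a short-chain, network-forming collagen of vessel walls and endothelial matrices, also made by mesangial cells. Col8a1 ran from 4.41 over 6.57 to 8.98 CPM in db/m and from 11.2 over 15.0 to 26.1 CPM in db/db. Every db/db library was above every db/m library, which also held for Col4a2 and for no other tested gene of the set. The difference was 2.58-fold (log2 fold change 1.37, SE 0.18, 95% interval 0.99 to 1.75; edgeR adjusted p = 3.72e-05), and it was called in all 25 alternative fits. For Col8a1 and Col4a2 the exact permutation p was 4.11e-05, the smallest that 24310 permutations can give. Its partner Col8a2 was below the minimum for the set, with 17 counts over the controls and 30 over the mutants.

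Col12a1, a large collagen that binds to the surface of collagen I fibrils, rose from lowest, median and highest values of 0.599, 1.90 and 2.49 CPM in db/m to 1.24, 5.01 and 6.63 CPM in db/db. With the exception of db/db 7 at 1.24 CPM, the db/db libraries lay above every db/m library. Col12a1 differed by 1.32 on the log2 scale (SE 0.29, 95% interval 0.71 to 1.93; edgeR adjusted p = 0.00626), on 68 and 195 counts. It reached 10 counts in 2 db/m and 8 db/db libraries, so it met the abundance minimum through the group in which it was higher. Col7a1, the anchoring fibril collagen, was at 1.01 (SE 0.35; edgeR adjusted p = 0.0845) on 64 and 150 counts, with values of 0.526, 1.78 and 3.06 CPM in db/m and 1.21, 3.38 and 5.58 in db/db. Col7a1 reached 10 counts in 3 db/m and 7 db/db libraries, so it too met the abundance minimum through the group in which it was higher. It was called without db/m 8 (1.19, edgeR adjusted p = 0.0495) and without db/db 4 (1.11, edgeR adjusted p = 0.0478). Col14a1, a relative of Col12a1 on fibrils, was at -0.22 (SE 0.13; edgeR adjusted p = 0.360). The 4 remaining collagens of this kind, Col13a1, Col16a1, Col23a1 and Col26a1, lay between -0.36 and 0.51. The value of 0.51 was that of Col13a1, which reached 10 counts in 4 db/m and 7 db/db libraries and met the minimum in the same way. In collagen VI, which forms beaded microfilaments, Col6a1 (0.44, SE 0.32), Col6a2 (0.44, SE 0.23) and Col6a3 (0.15, SE 0.28) all had positive values, none of them called (lowest edgeR adjusted p = 0.286). Between Col6a1 and Col6a2, r was 0.452 across db/m (exact permutation p = 0.253, adjusted p = 0.316; rho 0.119, p = 0.793) and 0.678 across db/db (exact permutation p = 0.0485, adjusted p = 0.162; rho 0.633, p = 0.0760). With the farthest 2 libraries left out these were 0.0556 and 0.439.

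Promoter stretches were matched by symbol for 30 of the 47 genes. Those of Col8a1 and Col5a1 are shown because, of the other collagens that rose, these have an entry with a single start. Each is 250 bases before the start, 5′ to 3′ on the gene's strand, from the RefSeq-based table for GRCm38.p6. The Col8a1 stretch is chr16:57754738-57754987 on the minus strand and that of Col5a1 is chr2:27886175-27886424 on the plus strand. Capitals mark GC boxes, read as GGGCGG or CCGCCC.
Col8a1: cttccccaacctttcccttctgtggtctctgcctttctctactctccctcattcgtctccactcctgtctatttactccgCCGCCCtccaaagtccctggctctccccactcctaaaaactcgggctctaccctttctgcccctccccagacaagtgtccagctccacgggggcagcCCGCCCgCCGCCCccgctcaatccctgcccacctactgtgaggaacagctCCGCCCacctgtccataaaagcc
Col5a1: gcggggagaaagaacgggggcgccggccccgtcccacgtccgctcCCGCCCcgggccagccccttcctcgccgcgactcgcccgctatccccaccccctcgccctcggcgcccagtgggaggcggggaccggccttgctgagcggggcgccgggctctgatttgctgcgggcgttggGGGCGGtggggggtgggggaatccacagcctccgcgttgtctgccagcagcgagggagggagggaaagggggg
The Col8a1 stretch held 4 GC boxes and that of Col5a1 held 2. Of 2 other genes called higher, not shown, Sparc held 0 and Fbn1 held 1. Of the 9 matrix genes called higher, 7 had an entry, with 8 stretches between them, and 5 of these 8 held at least 1 GC box. Across all 32851 stretches of the same length in the table, 32.7% held at least 1 on either strand, and 21 of 34 stretches of the matrix genes did, 61.8%. The TATA box letters TATAAA were found in 12.4% of all stretches and 2 of the 34, CCAAT in 33.8% and 9, and the AP-1 letters TGANTCA in 6.75% and 1. The 2 stretches shown held none of these other 3 motifs. A match is a string of letters, and binding was not measured.

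Of 8 tested fibril partners, 3 rose and 0 fell, 37.5% called higher beside 3.91% of all tested genes, with a median of 0.51. Sparc encodes a collagen-binding glycoprotein of basement membranes and fibrils. It had values of 158, 194 and 243 CPM in db/m and 197, 292 and 518 in db/db (log2 fold change 0.62, SE 0.16, 95% interval 0.30 to 0.95; edgeR adjusted p = 0.0153). Its highest library was db/db 8, and 7 of 9 db/db libraries exceeded the db/m maximum. Loxl1, an oxidase that crosslinks elastin and collagen, had 9.48, 11.9 and 15.6 CPM in db/m and 13.7, 19.2 and 31.3 in db/db (0.68, SE 0.18, 95% interval 0.31 to 1.04; edgeR adjusted p = 0.0201). The groups overlapped for Loxl1, with 6 of 9 db/db libraries above the db/m maximum. Fbn1, the backbone of microfibrils that store latent TGF-beta, had 3.30, 5.51 and 10.2 CPM in db/m and 6.70, 10.6 and 13.5 in db/db (0.76, SE 0.22, 95% interval 0.30 to 1.23; edgeR adjusted p = 0.0406). The Fbn1 call held without db/m 2, 3 or 7 or db/db 1 or 3 and ended in the other 12 fits that left out 1 library, at an edgeR adjusted p of up to 0.0810.

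The 5 other fibril partners did not pass the test and did not share a sign. The small proteoglycans were on opposite sides: Bgn (biglycan) was at 0.56 (SE 0.20; edgeR adjusted p = 0.101), from 108, 150 and 225 CPM in db/m to 128, 205 and 397 in db/db, and Dcn (decorin) at -0.52 (SE 0.24; edgeR adjusted p = 0.210), from 33.1, 60.1 and 107 to 27.7, 37.3 and 90.7 CPM. Both bind collagen fibrils and TGF-beta. Bgn was called higher without db/db 1 (0.64, edgeR adjusted p = 0.0380), and Dcn was called lower without db/db 9 (-0.73, edgeR adjusted p = 0.0370), its highest db/db library. Without db/m 8, its highest db/m library, Dcn was at -0.37. Fn1, the fibronectin gene, was at 6.74, 12.1 and 12.8 CPM in db/m and 7.81, 12.6 and 20.8 in db/db (0.33, SE 0.20, 95% interval -0.08 to 0.74; edgeR adjusted p = 0.353), with 4 of 9 db/db libraries above the db/m maximum. The crosslinking oxidase gene Lox was at 0.45 (SE 0.35; edgeR adjusted p = 0.495) and Tgfbi at -0.44 (SE 0.23; edgeR adjusted p = 0.272). Lum and Postn, with 125 and 111 counts over all libraries, were below the minimum for the set.

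Fibroblast markers gave no call among 5 tested by edgeR (0 at an unadjusted p under 0.05), with sums of 56.0 to 181 CPM in db/m and 56.5 to 179 in db/db. Of the 6 markers of smooth muscle and myofibroblasts, none was called (0 at an unadjusted p under 0.05), with sums of 78.4 to 267 and 111 to 276 CPM. Among 8 markers of mural and mesangial cells the renin gene Ren1 was called higher (0.71, SE 0.22; edgeR adjusted p = 0.0467), 12.5% beside 3.91% of all tested genes. The Ren1 call held in 7 of the 17 fits without 1 library (edgeR adjusted p up to 0.0966). At an unadjusted p under 0.05, 3 of the 8 were higher and 0 lower, 37.5% beside 21.1% of all tested genes. Positive values were found for 7 of the 8, and Pdgfrb was at -0.28 (SE 0.27). Sums of the 8 ran from 158 to 238 CPM in db/m and from 209 to 387 in db/db. Macrophage markers gave 5 tested genes, all with negative values and none called, and sums of 110 to 247 and 61.4 to 214 CPM. Of these 5, 2 were lower at an unadjusted p under 0.05, 40% beside 21.1% of all tested genes. Of the 6 adipocyte markers tested, Lpl alone was called, lower. In the list for thick ascending limb and distal tubule, the median log2 fold change was 0.48. Sums were 2334 to 4139 CPM in db/m and 2386 to 4731 in db/db. Of its 8 markers, 4 were called higher and 0 lower, where 3.91% of all tested genes were called higher and 3.49% lower. At an unadjusted p under 0.05, 5 were higher and 1 lower, 75% beside 21.1% of all tested genes. The thick limb markers Umod and Slc12a1 were not called. The 4 were Calb1 (1.43, SE 0.13; edgeR adjusted p = 1.45e-07), which encodes a calcium-binding protein, the collecting duct water channel genes Aqp2 and Aqp3, and the proton pump gene Atp6v1g3. Of the 8 proximal tubule markers, the glucose transporter gene Slc5a2 was called higher (0.46, SE 0.13; edgeR adjusted p = 0.0276), in the full fit and in 11 of the 17 fits without 1 library, and the fatty acid transporter gene Slc27a2 lower (-0.63, SE 0.09; edgeR adjusted p = 8.63e-05). The part of these cell types in the matrix values was not tested.

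Around the matrix genes, the machinery that makes, cuts and binds matrix was counted in 5 lists, beside the 3.91% and 3.49% of all tested genes called higher and lower. Of 23 tested genes of collagen synthesis and crosslinking, 1 rose and 0 fell, and the median was 0.07. The gene was Pcolce, whose protein speeds the trimming of procollagen, with 37.7, 51.7 and 68.5 CPM in db/m and 42.7, 82.1 and 175 in db/db (0.78, SE 0.22; edgeR adjusted p = 0.0289). The Pcolce call ended without db/m 1, 2, 4 or 8 or without db/db 7. Prolyl and lysyl hydroxylases were on this list, and none was called. Of 18 genes of the TGF-beta pathway 0 were called in either direction by edgeR, 0 also at an unadjusted p under 0.05, and the median was 0.10. In the list of matrix receptors, 1 of 24 rose and 0 fell: Itgav, the integrin chain that binds fibronectin and latent TGF-beta (0.69, SE 0.18; edgeR adjusted p = 0.0190), from 38.2, 55.4 and 62.3 CPM to 54.5, 75.5 and 149 CPM. That list gave 3 higher genes without db/db 1, 2 without db/m 5, db/m 8 or db/db 2, and 1 lower gene without db/m 6, db/db 1 or db/db 6.

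Of 26 tested genes of other basement membrane and elastic fiber proteins, 1 rose and 3 fell, with a median of 0.09. Npnt, whose protein nephronectin is a basement membrane ligand of integrin α8β1, rose from 52.3, 77.8 and 147 CPM to 80.6, 130 and 347 CPM (0.998, SE 0.26; edgeR adjusted p = 0.0212), a call that ended with db/m 8 and db/db 8 both left out. Fras1, a basement membrane protein lost in Fraser syndrome, fell from 25.2, 38.7 and 45.1 CPM to 12.4, 20.8 and 36.2 CPM (-0.84, SE 0.18; edgeR adjusted p = 0.00497). Vwa1, which binds perlecan, fell from 32.0, 50.1 and 83.1 CPM to 20.8, 28.9 and 44.9 CPM (-0.82, SE 0.18; edgeR adjusted p = 0.00501). Smoc1, a relative of Sparc, fell by 1.84 on the log2 scale (SE 0.49; edgeR adjusted p = 0.0220), from a median of 3.93 to 0.844 CPM. The Smoc1 call ended without db/m 4, and without db/db 9 the gene missed the filter. Without db/m 8 a 2nd gene, Ltbp3, was higher.

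Of 20 tested matrix proteases and inhibitors, 5 fell and 1 rose, while the median of all 20 was 0.08. The meprins Mep1a and Mep1b, metalloproteases of the proximal tubule brush border that can cut basement membrane proteins, both fell. Mep1b ran from 36.6 to 62.9 CPM in db/m and from 7.59 to 26.9 CPM in db/db (-1.71, SE 0.20; edgeR adjusted p = 5.97e-06), and Mep1a from 572 to 751 CPM and from 270 to 539 CPM (-0.75, SE 0.12; edgeR adjusted p = 0.000228). For both, the groups did not overlap, as for 1.05% of all tested genes in that direction. Plau, the plasminogen activator urokinase, fell from a median of 46.4 to 22.1 CPM (-1.13, SE 0.24; edgeR adjusted p = 0.00427), Mmp11 from 5.49 to 2.64 CPM (-1.13, SE 0.28; edgeR adjusted p = 0.0130), and the metalloprotease inhibitor Timp3 from 2478 to 1749 CPM (-0.49, SE 0.11; edgeR adjusted p = 0.00610). Serpine2, an inhibitor of urokinase and thrombin, rose from a median of 46.9 to 74.9 CPM (0.69, SE 0.14; edgeR adjusted p = 0.00370). In this list 2 genes were higher with no filter, with library size scaling alone or with DESeq2.

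The abundance minimum left out 22 collagen and fibril genes. Just inside it was Col5a2, with 10 counts or more in 8 libraries, and just outside was Col19a1, a collagen of basement membrane zones, with 5. Col19a1 had 156 counts over the 8 db/m libraries, between 3 and 38 in each, and 12 over the 9 db/db libraries, between 0 and 4 in each, 5 of them at 0. Its level was 4.01 ± 2.24 CPM in db/m (SD, n = 8) and 0.277 ± 0.340 CPM in db/db (n = 9). The lowest db/m library, db/m 8 with 3 counts, lay within the db/db range. All 5 libraries in which it reached 10 counts were db/m, whereas 5 of the 8 for Col5a2 were db/db. Col19a1 lies outside the set. The fit with no filter took in every gene with a count, Col19a1 among them, and its result for this gene is not reported here.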

How the data were processed

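Kidney RNA of 17 mice (db/m, n = 8; db/db, n = 9) was deposited by the authors as 1 table of raw counts per gene, not normalized. Per the submitters' processing notes, STAR 2.7.3a and HTSeq 2.16.2 were used. The build named there is the human GRCh38, although the gene identifiers are mouse; for the mouse build, the strand setting and the molecular identifiers, nothing was given in the sources used here. Rows that name no gene (19.3% of counts without a feature, 0.533% ambiguous) were left out. Groups follow the titles. Counts were compared with edgeR 4.0.16 (R 4.3.3; TMM scaling, filterByExpr with a minimum count of 10, quasi-likelihood test without covariates) over 12131 genes, with Benjamini-Hochberg adjustment. CPM are TMM-scaled. SEs were derived from each log2 value and its F statistic (absolute value over root F). Single values were also tested by exact permutation of the libraries, two-sided. Only the main edgeR fit was tried on simulated data, and the alternative fits were not. The members and gene lists were chosen with earlier results of these data known. Full values are given for called members, the collagen IV chains, Col1a1, Col1a2, Col3a1, Fn1 and the 4 uncalled members with the largest absolute change, and for called genes (at most 6) of the 5 neighbouring lists; other members named with single values were chosen after their values were seen. Libraries were 1 per mouse; no 2 agreed within sampling noise (lowest chi-square per degree of freedom 3.83). Alternatives were other scalings and filters, DESeq2 1.42.0, limma 3.58.1 voom, a replicate block and leaving out each library; leaving out db/m 8 and db/db 8 together was chosen after seeing the data. One laminin chain of the set is counted but not reported by name here.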

Additional observations from a re-analysis of the deposited data

Results flagged for a closer look

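Each of the 47 genes was examined in each group for a single library far from the rest, by the gap to its nearest neighbour as a share of the group's range. Of 94 such groups, 13 stood out, and 11 of the 13 were in db/db. The rule is set to flag about 1 in 20 by chance. It was used on CPM without a log, and the 94 groups share the same 17 libraries. The 13 were therefore not tested against that rate. Library db/db 8 held the highest Sparc (518 CPM, next 353), Col4a3 (135, next 67.6) and Nid1 (62.1, next 35.7). Library db/db 1 held the highest Col27a1 (429 CPM, next 209), Lama5 (34.0, next 21.1) and Lama3 (13.0, next 7.38). Library db/db 9 held the highest Dcn (90.7 CPM, next 48.7) and Col3a1 (22.7, next 13.7). Library db/db 4 held the highest Col4a2 (156 CPM, next 117) and Col13a1 (7.85, next 4.02), and db/db 2 the highest Col4a5 (9.10, next 6.33). In db/m, Lamb3 was highest in db/m 8 (21.5 CPM, next 6.84), and Agrn was lowest in db/m 4 (67.8 CPM, next 80.6).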

How the results depend on the processing

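Col4a2 and Col8a1 were called in every one of the 25 alternative fits. No pairing of the animals by replicate number was seen. Same-numbered deviations correlated between -0.454 and 0.212 over 8 pairs, with a library's own number the best match in 0 of 8. Such a correlation over all tested genes cannot exclude a weak pairing. With the replicate block, in which db/db 9 has no partner, 2 matrix genes were higher (Col4a2 and Col8a1), 1 basement membrane gene, and 0 fibrillar collagens. Over all genes the block gave 200 higher and 235 lower, against 474 and 423 without it. Other settings gave 605 and 372 (library size only, median log2 fold change 0.04) and 621 and 534 (DESeq2). Leaving out 1 library gave 7 to 10 matrix genes higher and 0 to 1 lower, and 0 to 1 basement membrane genes lower. Col4a1 was also lost with limma voom (adjusted p = 0.0538) and with no filter (edgeR adjusted p = 0.0580), Fbn1 with no filter (edgeR adjusted p = 0.0603). Exact permutation over all genes also ended both calls, Col4a1 at an adjusted p of 0.0682 and Fbn1 at 0.0502.

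Signs turned only in genes that were not called. Without db/m 8 and db/db 8 these log2 fold changes became Agrn 0.0139, Col4a5 0.20, Hspg2 0.20, Lamb1 0.000672, Lamb3 0.33, Lamc1 0.15, Col1a2 0.0866 and Col23a1 0.12. With library size only they became Col4a3 0.0254, Hspg2 0.0110, Lama2 0.0100, Lamb1 0.0351 and Lamc1 0.0172. Col4a3 became 0.00443 with DESeq2 size factors, 0.00407 with no filter and 0.00297 with DESeq2. With voom, Col4a5 was 0.0540, Lama1 0.00115 and Lamc1 0.0793. With the block, Col4a5 was 0.0210, Lama1 0.00847, Lama2 0.0332 and Lamc1 0.0223. By mean log2 CPM, Col4a5 was 0.0591 and Lamc1 0.0465. Leaving out 1 library gave Agrn -0.0821 to 0.00603, Col4a3 -0.24 to 0.0887, Col4a5 -0.24 to 0.20, Hspg2 -0.12 to 0.0916, Lama1 -0.15 to 0.0399, Lama2 -0.11 to 0.0929, Lama5 -0.0549 to 0.27, Lamb1 -0.0852 to 0.0395, Lamb3 -0.60 to 0.31, Lamc1 -0.11 to 0.14, Col1a2 -0.26 to 0.0645, Col3a1 -0.0364 to 0.40 and Col23a1 -0.30 to 0.0212. The cause was not tested. Depth limits genes with few counts, such as Col12a1, which the stricter filter left out.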

Other observations

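Among the collagens below the abundance minimum, Col6a6, an α chain of collagen VI, had 45 counts over the db/m libraries and 8 over the db/db libraries. Col11a2, a chain of the cartilage fibril collagen XI, had 24 and 62, and Col5a3, a further chain of collagen V, had 40 and 78. They were picked after their counts were seen. As genes outside the set they entered only fits whose results for them are not reported here.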
